A study of Tupaia belangeri chinensis with 36 samples.

Results

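A set of 64 genes was followed through the developing cortex of the Chinese tree shrew, chosen because their RNA rose at both steps of development in every neuron-rich layer. The genes were drawn from the 21043 features of the annotation whose identifiers begin with TSDBGID, out of 76871 features in all. For each gene, levels in CPM (the counts of a feature scaled to 1000000 counts on features in its library) were averaged by stage in the intermediate zone (IZ), in the marginal zone (MZ) and in the cortical plate (the libraries of the CP, CPi and CPo together). A gene was kept when its mean at embryonic day 42 (E42) was at least 10 CPM in all 3 layers and when the mean rose at least 1.5 times from E28 to E37 and again from E37 to E42 in each of them. The germinal layers were not used to choose the genes.

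In the fetal cortex, radial glia line the ventricle in the ventricular zone (VZ) and give rise to intermediate and basal progenitors, which settle in the subventricular zone. In primates and in the tree shrew this zone is divided into an inner (ISVZ) and an outer (OSVZ) part, and the OSVZ is known for its basal radial glia. Neurons made in these germinal layers migrate outward through the IZ into the cortical plate, which lies under the MZ, the home of Cajal-Retzius cells. Glial cells and blood vessels are found in these layers too.

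The layers had been cut from frozen, Nissl-stained sections of fetal cortex by laser capture microdissection, and their polyadenylated RNA was sequenced. The 36 libraries came from Tupaia belangeri chinensis fetuses at E28, E37 and E42, and the labels name no treatment, strain or genotype. The 12 libraries of E28 hold every layer (VZ to MZ, with the CP undivided) in pairs, and the 14 libraries of E42 hold the same layers in pairs with the CPi and CPo in place of the CP. The E37 libraries used were 3 IZ, 2 MZ, 2 CPi, 2 CPo and 1 CP library, without germinal layers, so that the germinal layers are compared between E28 and E42 only. CPi and CPo are sublayers of the cortical plate as the labels name them. The labels do not say which libraries came from one fetus or litter, so p-values measure the spread between these libraries, which may in part be technical.

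A library held between 17932690 and 102042743 counts on features (median 31928350), and 62 to 64 of the 64 genes had a count in each library. The VZ libraries numbered 2 of E28 and of E42 held identical counts for all 76871 features, so 35 libraries were distinct. Both were left out of the tests, except where VZ libraries of E28 are said to be included, and the change of the VZ with stage is given as values of replicate 1 alone. One ISVZ library of E28 had 15.4% of its reads aligned to several places, against a median of 2.92% over all libraries. Between 15.0% and 19.1% of the reads of a library were ambiguous between overlapping features. The library kit does not mark the strand, so reads of a gene and of an overlapping antisense feature cannot be told apart.

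The files do not pair TSDBGID identifiers with gene symbols. No TSDBGID identifier, member or not, occurs in a RefSeq table of tree shrew genes, so that table could not name the 64. Their functions, proteins and promoters are therefore not described, and the dissected layers could not be checked against marker genes. The identifiers also do not say whether a gene encodes a protein. Of the features named LINC and AS, 0 of 31776 and 0 of 22595 met the rule, although 63 and 96 of them reached 10 CPM at E42 in the 3 layers.

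The rule was narrow. Of 7650 TSDBGID genes with at least 10 CPM at E42 in the 3 layers, 254 rose stepwise in the IZ, 233 in the MZ and 322 in the cortical plate. All 3 rises were shared by 64 of them, 141 rose in exactly 2 of the layers and 335 in 1. By the mirrored rule, with the minimum of 10 CPM set at E28 in place of E42, 5 TSDBGID genes fell at both steps in all 3 layers. Among the members just inside the limit, the smallest of the 6 steps was 1.51 and 1.51 times, and just outside it was 1.49 and 1.49. The lowest E42 means inside the limit were 10.5 and 10.8 CPM, against 9.32 and 9.04 CPM just outside.

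By the choice of the genes, every member rose in the 3 neuron-rich layers, and the sizes of the steps are given as a description. The median member rose 3.19 times from E28 to E37 in the IZ and 3.22 times from E37 to E42. In the MZ the median first step was 4.33 times and the second 3.05 times. In the cortical plate the median first step was 5.11 times and the second 2.37 times. The first step, from E28 to E37, spans more days than the second, and the ratios were not scaled for this. The second step was the larger for 31 of the 64 members in the IZ and 25 in the MZ, but for 11 in the cortical plate. From E28 to E42 the median member rose 11.1 times in the IZ, 15.8 times in the MZ and 13.8 times in the cortical plate.

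Summed over the 64 members, the share of a library taken by these genes grew in each of these layers. In the CP of E28 the members together took 424 and 335 CPM. The sums were 749 and 747 CPM in the IZ and 1004 and 539 CPM in the MZ of that stage. At E37 the IZ libraries held 2155, 2730 and 2264 CPM, the MZ 2988 and 3261 CPM, and the 5 libraries of the cortical plate between 851 and 1698 CPM. By E42 the sums had reached 6935 and 7850 CPM in the IZ and 12752 and 12707 CPM in the MZ, while the CPi held 3496 and 3266 CPM and the CPo 2479 and 2103 CPM. The sums of a layer did not overlap between any pair of these stages, but each gene was chosen for its rise there, so this is a description. Between 24.0% and 56.6% of a sum came from 5 members, so it follows its most abundant genes.

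**Figure D1:**
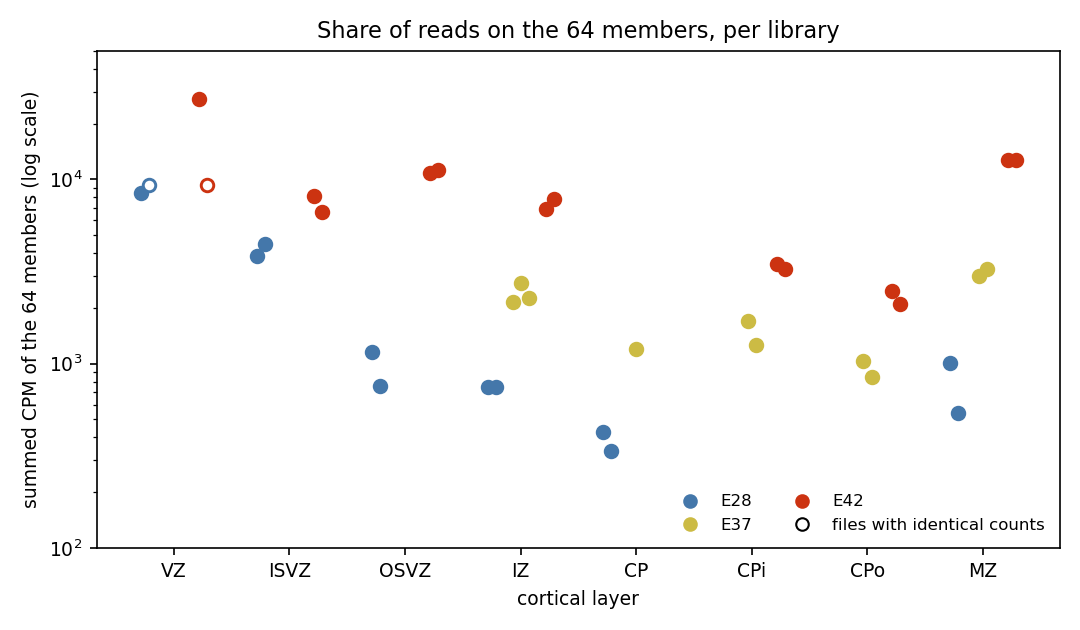
Summed CPM of the 64 members (vertical axis, log scale) in each library, by cortical layer (horizontal axis) and stage (colour). Each point is 1 library, and open points are the VZ libraries of E28 and E42 with identical counts. The VZ and ISVZ were already high at E28 (3832 CPM or more), whereas the OSVZ rose from 757 and 1161 CPM to 10819 and 11263 CPM.

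The genes had been chosen for their rise in neuron-rich layers, and most of them were highest in a germinal layer. The rule asked for E28 levels well below those of E42 in the IZ, MZ and cortical plate. How often each layer was highest at E28 therefore depends in part on that choice. At E28 the VZ had the highest mean of all layers for 38 of the 64 members, against 29.6% of the 7650 TSDBGID genes that reached the same level. The MZ was highest for 14 (21.9%, against 23.5% of the 7650) and the ISVZ for 9 (14.1% against 15.5%). The IZ was highest for 3 (4.69% against 5.86%), and the CP and OSVZ for 0 (19.3% and 6.26% of the 7650). At E42 the VZ was again highest for 38, against 25.8% of the 7650. The MZ followed with 12 (18.8% against 8.84%), then the IZ and OSVZ with 4 each (6.25%, against 9.37% and 6.98%). The ISVZ, CPi and CPo were highest for 2 each (3.1%, against 20.8%, 15.2% and 13.1%). The same 33 members were highest in the VZ at both stages. A germinal layer was highest at both stages for 41 members and a neuron-rich layer for 14, while 6 members went from germinal to neuron-rich and 3 the other way. The VZ is represented by 1 library per stage in these counts. The members thus shared a rise over time in the neuron-rich layers, while for most of them the highest level lay elsewhere.

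Within the germinal layers of E28 the members formed a gradient that declined away from the ventricle. Their sum was 8479 CPM in replicate 1 of the VZ and 9282 CPM in replicate 2, then 3832 and 4440 CPM in the ISVZ, and 1161 and 757 CPM in the OSVZ. The median member was 1.69 times higher in the VZ than in the ISVZ and 6.96 times higher in the VZ than in the OSVZ, against 1.01 and 1.05 times for the median of the 7650 genes. In the OSVZ the median member stood at 0.929 of its level in the IZ, the neighbouring layer, against 1.00 for the 7650 genes. Relative to the CP, the median was 18.9 times higher in the VZ, 8.86 times in the ISVZ and 2.67 times in the OSVZ. For the 7650 genes these ratios to the CP were 1.02, 1.00 and 0.991. The rule used the E28 levels of the IZ and the CP, so the ratios to these layers depend in part on that choice.

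**Figure D2:**
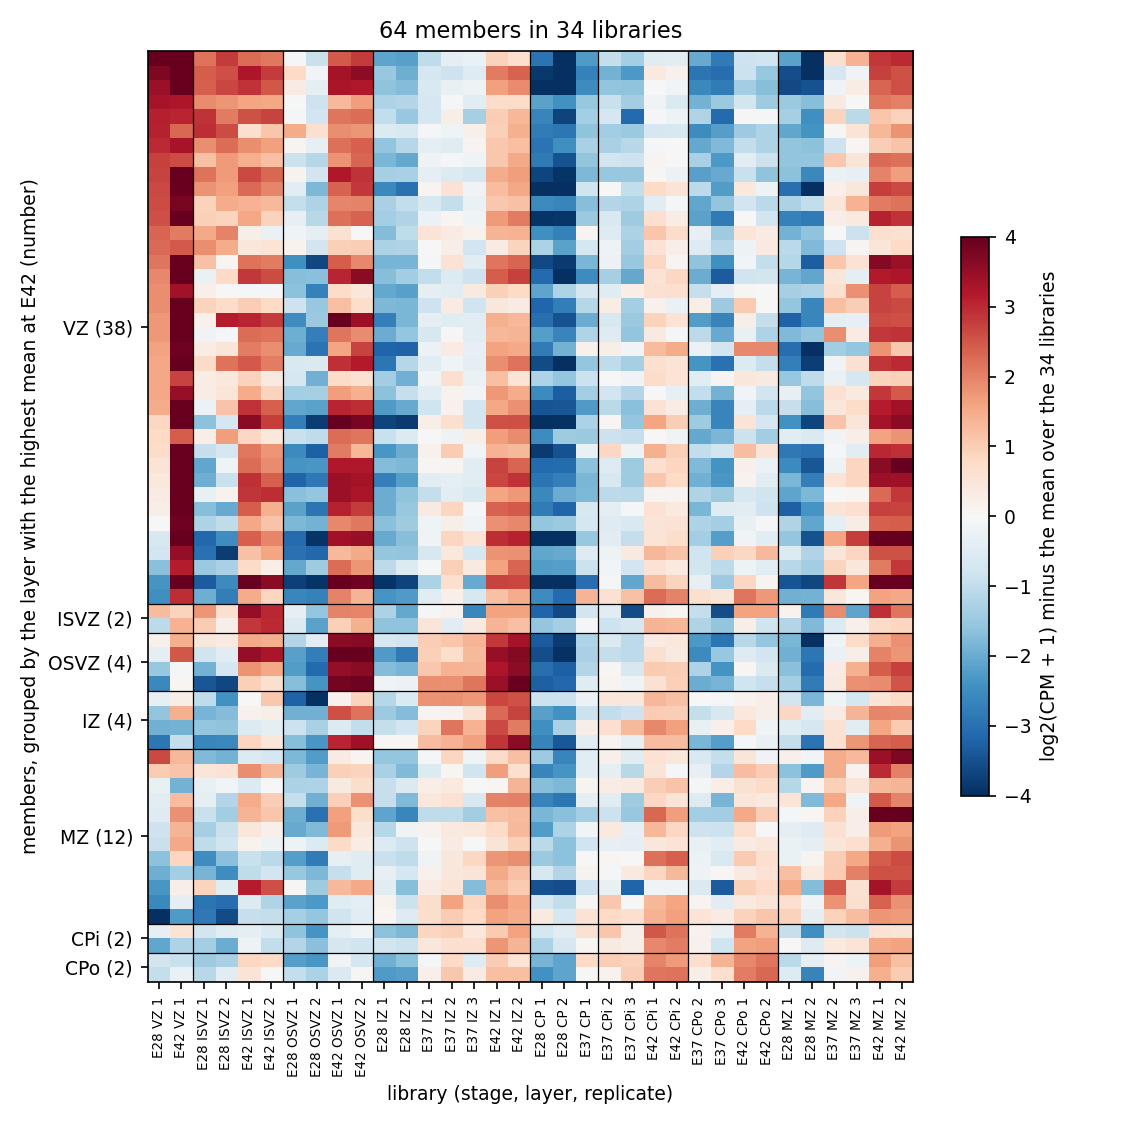
Level of each of the 64 members (one line each, grouped by the layer with the highest mean at E42) in the 34 libraries outside the identical VZ pair. Colour gives log2(CPM + 1) minus the gene's mean over the 34 libraries, from blue (lower) to red (higher). The top block holds the 38 members highest in the VZ at E42, of which 33 were also highest there at E28, and the OSVZ columns of that block are redder at E42 than at E28 for every member.

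At E28 the OSVZ was compared with the ISVZ by edgeR's quasi-likelihood test over all features, with Benjamini-Hochberg adjustment at 0.05. Of the 64 members, 36 were lower in the OSVZ, where 4.32% of all features tested and 8.09% of the 7650 TSDBGID genes were lower. Another 3 were higher, against 4.28% of all features and 11.9% of the 7650. The median log2 difference of the members was −2.01 (median SE 0.46), whereas that of the 7650 TSDBGID genes was 0.02. Without replicate 2 of the OSVZ at E28, which had the lower sum, 18 members were called lower. In a fit of the 12 E28 libraries alone, with both VZ libraries as labelled, a comparison added after the data had been seen, 43 members were lower in the OSVZ than in the VZ (9.59% of all features were) and 2 were higher (9.52%), with a median log2 difference of −2.87. In the same fit 10 members were higher in the VZ than in the ISVZ (0.874% of all features) and 0 were lower (2.79%).

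By E42 the members were no longer lower in the OSVZ. The members' sum in the OSVZ was 10819 and 11263 CPM, above both ISVZ libraries at 8108 and 6667 CPM and above both IZ libraries. Of the 64 members, 51 had a higher mean in the OSVZ than in the ISVZ, against 44.7% of the 7650 TSDBGID genes. The median ratio was 1.41, against 0.967 for the 7650. The test found 5 members higher in the OSVZ, where 0.512% of all features and 1.44% of the 7650 genes were. It found 0 lower, where 0.291% and 0.575% were. An unadjusted p under 0.05 was found for 27 members and for 2238 of the 26780 features tested. DESeq2, another tool for counts, called 8 higher and 2 lower. The share of all features that DESeq2 called is not given, here or below. Its counts therefore do not show whether members were called more often than other features. The median log2 difference was 0.60 (median SE 0.43). The 5 calls are few beside the spread between 2 libraries a layer, and the totals were 1 to 3 when any one of the 4 libraries was left out.

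From E28 to E42, 51 of the 64 members rose in the OSVZ. This layer adjoins the IZ, which the rule used, and the authors filtered their own IZ genes by OSVZ genes because of that closeness. Whether tissue of one layer entered libraries of the other was not tested. All 64 members had a higher mean at E42, against 49.9% of the 7650 TSDBGID genes. For 63 of the members both E42 libraries lay above both E28 libraries, against 31.6% of the 7650. The 51 called higher, 79.7% of the members, stand beside 6.53% of all features and 9.18% of the 7650 genes, and 0 were lower, where 5.11% and 14.4% were. DESeq2 called 55 higher and 0 lower. In the edgeR test 56 members had an unadjusted p under 0.05, beside 6257 of the 26780 features tested. The median log2 fold change was 3.03 (median SE 0.49), with a range from 0.23 to 9.76, while the median of the 7650 genes was −0.20.

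In the ISVZ the members moved less evenly. The test called 31 members higher at E42, where 6.77% of all features and 12.1% of the 7650 genes were, and 3 lower, where 8.04% and 20.3% were. The median log2 fold change was 1.28 (median SE 0.45), from −2.15 to 7.47, against −0.19 for the 7650 genes. For 45 members both E42 libraries lay above both E28 libraries, against 41.8% of the 7650. The members' sum rose from 3832 and 4440 CPM to 8108 and 6667 CPM, less than the change in the OSVZ from 1161 and 757 CPM to 10819 and 11263 CPM. Of the 64 members, 28 were called higher in both layers and 23 in the OSVZ but not in the ISVZ. Another 3 were called higher in the ISVZ but not in the OSVZ, and 7 were called in neither layer. The 3 lower in the ISVZ were not called in the OSVZ. This split was not made over all features, so it is a description.

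The difference between the changes in the OSVZ and the ISVZ was tested itself, as an interaction in the same fit. The change was larger in the OSVZ for 31 of the 64 members, where this held for 1.95% of all features and 3.99% of the 7650 genes. It was larger in the ISVZ for 0, against 1.74% and 4.94%. An unadjusted p under 0.05 was found for 50 members and for 3736 of the 26780 features tested. DESeq2 called 46 larger in the OSVZ and 1 larger in the ISVZ, without its share of all features beside them. The median difference of the log2 changes was 2.23 (median SE 0.62). Of these 31 members, 27 had also been called lower in the OSVZ than in the ISVZ at E28, an overlap not counted over all features. The 2 results share the E28 libraries, so a low OSVZ value at E28 enters both. With all 36 libraries as labelled, the interaction was called for 19 members.

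**Figure D3:**
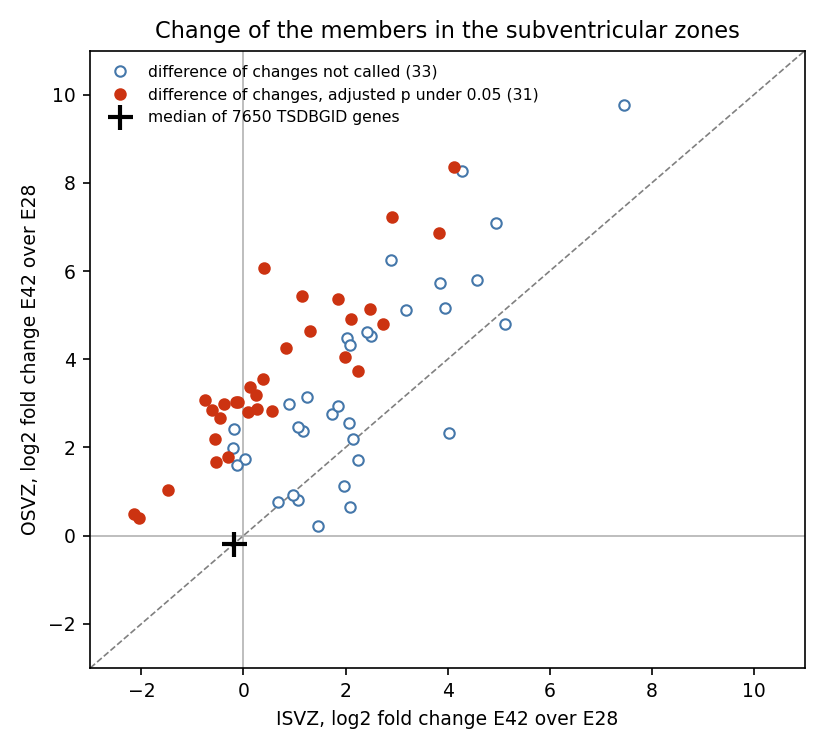
Log2 fold change from E28 to E42 of each member in the ISVZ (horizontal axis) and the OSVZ (vertical axis). Each point is 1 of the 64 members, filled where the difference of the changes passed the test (31 members), the dashed line marks equal changes, and the cross marks the medians of the 7650 TSDBGID genes (−0.19 and −0.20). Filled points lie above the dashed line, and all 64 points lie above 0 on the vertical axis.

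The members that were highest in a germinal layer at both stages carried most of this pattern. Of these 41, 35 were called higher in the OSVZ at E42 and 17 in the ISVZ, 3 were lower in the ISVZ, and 28 had the larger change in the OSVZ. Of the 14 members highest in a neuron-rich layer at both stages, 8 were called higher in the OSVZ, 10 in the ISVZ and 0 lower in the ISVZ, and 1 had a larger change in the OSVZ. The 38 members that were highest in the VZ at E42 had a median log2 fold change of 3.46 in the OSVZ and 0.40 in the ISVZ. For the 12 that were highest in the MZ, these medians were 2.35 and 1.20. Sorting members by their highest layer uses the same germinal libraries, so these counts are a description.

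In the VZ, replicate 1 of E42 held 27303 CPM on the members, against 8479 CPM in replicate 1 of E28. At least 1.5 times the E28 level was reached by 50 of the 64 members, where 49.8% of all features with a count and 25.8% of the 7650 TSDBGID genes did so. Another 3 members were at least 1.5 times higher at E28, where 25.2% of all features and 20.4% of the 7650 were. The median ratio was 4.16, with 1 library a stage and no replicate check. The library labelled replicate 2 of the VZ at E42, identical to replicate 2 of E28, held 9282 CPM. For 54 members the shared counts were nearer to replicate 1 of E28 than to replicate 1 of E42. No such count was made over all features, so it does not tell which stage the shared counts belong to.

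Genes that rose stepwise in fewer layers were compared in the same fit. Of the 141 genes that rose in exactly 2 of the 3 layers, 61.7% were higher in the OSVZ at E42 and 34.0% in the ISVZ, against 79.7% and 48.4% of the members. Of the 96 that rose in the IZ alone, 64.6% were higher in the OSVZ and 50% in the ISVZ. Those that rose in the MZ alone, 89 genes, were called higher in the OSVZ for 46.1% and in the ISVZ for 15.7%, and a further 25.8% were lower in the ISVZ. Of the 150 genes that rose in the cortical plate alone, 30.7% were higher in the OSVZ and 32.7% in the ISVZ. All 5 genes that fell at both steps in the 3 layers were lower in the OSVZ at E42, and 3 of them in the ISVZ. Differences between these lists were not tested.

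The 2 members whose smallest of the 6 steps was the largest were TSDBGID.21050 and TSDBGID.16853. TSDBGID.21050 rose in the IZ from 0.570 and 1.28 CPM at E28 through 6.78, 7.17 and 6.57 CPM at E37 to 65.4 and 76.6 CPM at E42. In the MZ it rose from 1.95 and 0.574 CPM through 14.2 and 18.1 CPM to 111 and 108 CPM. In the cortical plate it stood at 0.369 and 0.563 CPM at E28, at 1.07 to 5.72 CPM in the 5 libraries of E37 and at 6.85 to 21.2 CPM in the 4 of E42. Its libraries of successive stages did not overlap in any of these layers, but the gene was picked for its large steps there, so this is a description. In the OSVZ it rose from 0.130 and 0.458 CPM to 114 and 103 CPM, and in the ISVZ from 1.69 and 4.65 CPM to 78.9 and 53.6 CPM. Its log2 change was 4.23 larger in the OSVZ than in the ISVZ (SE 0.75, adjusted p = 0.0022). Replicate 1 of the VZ held 13.1 CPM at E28 and 506 CPM at E42, the highest level of this gene.

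TSDBGID.16853 was at 2.21 and 2.09 CPM in the IZ of E28 and at 69.0 and 52.9 CPM at E42. In the MZ it went from 0.827 CPM and a count of 0 at E28 to 132 and 173 CPM, and in the OSVZ from 1.12 and 1.14 CPM to 98.8 and 98.2 CPM. In the ISVZ its E28 libraries were apart, at 1.56 and 8.57 CPM, and those of E42 held 49.8 and 39.2 CPM. Both germinal layers were thus higher at E42 without overlap. The log2 change was 3.36 larger in the OSVZ (SE 0.95), which did not pass the adjustment (adjusted p = 0.061).

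Among the members that rose in both subventricular layers, TSDBGID.7419 and TSDBGID.25478 rose most by the smaller of their changes. TSDBGID.7419 was nearly absent at E28, with 0.994 and 2.39 CPM in the ISVZ, 0.494 and 0.315 CPM in the OSVZ, and 0.302 and 0.532 CPM in the IZ. By E42 it held 483 and 243 CPM in the ISVZ and 517 and 292 CPM in the OSVZ, a log2 fold change of 7.47 (SE 1.10, adjusted p = 0.00018) and 9.76 (SE 1.24, adjusted p = 5.1e-05). It was higher still in the MZ of E42, at 1478 and 1236 CPM, and in replicate 1 of the VZ, at 2074 CPM against 2.88 CPM at E28. The cortical plate of E42 held 20.5 to 46.8 CPM, so that this member ranged widely among the layers of the late cortex. Its level at E37 also varied among libraries of one layer, with 7.18, 30.4 and 3.90 CPM in the IZ and 144 and 58.5 CPM in the MZ.

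TSDBGID.25478 rose from 3.58 and 6.21 CPM to 209 and 153 CPM in the ISVZ, a log2 fold change of 4.95 (SE 0.64, adjusted p = 4.5e-05). In the OSVZ it rose from 3.80 and 1.63 CPM to 413 and 446 CPM, a log2 fold change of 7.09 (SE 0.71, adjusted p = 3.2e-06). At E28 it had been higher in the IZ, at 8.89 and 11.3 CPM, than in either subventricular layer, and at E42 the IZ held 308 and 341 CPM, between the ISVZ and the OSVZ. For neither of these members did the change differ between the OSVZ and the ISVZ after adjustment (adjusted p = 0.54 for TSDBGID.7419 and 0.19 for TSDBGID.25478).

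The members called lower in the ISVZ at E42 went against most of the set there. A positive log2 fold change was found in that layer for 49 of the 64 members. TSDBGID.25596 fell in the ISVZ from 368 and 293 CPM to 75.1 and 103 CPM, a log2 fold change of −2.15 (SE 0.26, adjusted p = 1.7e-06). In the OSVZ it stood at 133 and 75.1 CPM at E28 and at 173 and 162 CPM at E42 (log2 fold change 0.48, SE 0.25, adjusted p = 0.26). Replicate 1 of the VZ held 401 CPM at E28 and 236 CPM at E42. In the IZ, by contrast, the gene rose from 31.8 and 30.5 CPM to 91.2 and 129 CPM. The change differed between the OSVZ and the ISVZ by 2.63 on the log2 scale (SE 0.37, adjusted p = 6.5e-05), and at E42 both OSVZ libraries lay above both ISVZ libraries, a difference of 1.00 on the log2 scale that did not pass the adjustment (SE 0.26, adjusted p = 0.062). Without replicate 1 of the OSVZ at E28 its OSVZ change was 1.00 on the log2 scale with an adjusted p of 0.039.

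TSDBGID.4309 fell in the ISVZ from 270 and 375 CPM to 110 and 77.2 CPM, a log2 fold change of −2.05 (SE 0.37, adjusted p = 0.00070). Its OSVZ libraries held 83.2 and 72.1 CPM at E28 and 141 and 93.8 CPM at E42 (log2 fold change 0.41, SE 0.36, adjusted p = 0.56). Here too the changes in the layers differed, by 2.45 on the log2 scale (SE 0.52, adjusted p = 0.0079). In the IZ this gene reached 238 and 244 CPM at E42 and in the CPi 200 and 156 CPM, above both subventricular layers. The VZ was its highest layer at both stages, with 468 CPM at E28 and 397 CPM at E42 in replicate 1, and the CP of E28 held 16.2 and 13.4 CPM.

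**Figure D4:**
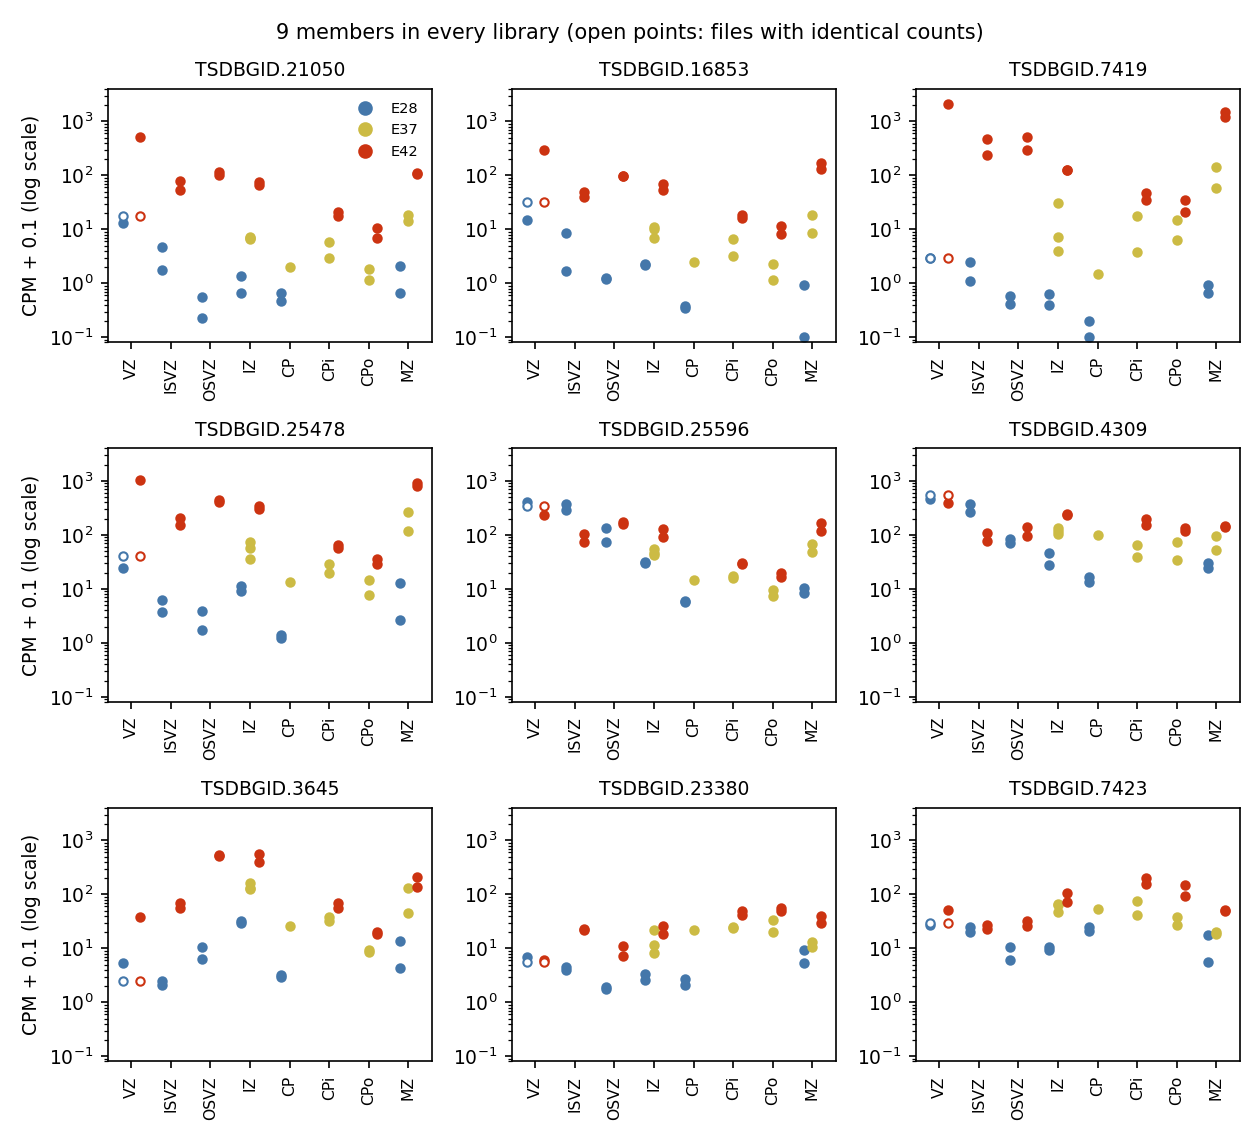
Level of the 9 named members (CPM + 0.1, log scale) in every library, by layer (horizontal axis) and stage (colour), with open points for the VZ libraries with identical counts. TSDBGID.25596 and TSDBGID.4309 fall with stage in the ISVZ and rise in the IZ, cortical plate and MZ, while TSDBGID.7419 and TSDBGID.25478 rise in every layer between E28 replicate 1 and E42 replicate 1.

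The neuron-rich layers of a stage were also set side by side. The rule fixed no order between them, but it used the same libraries and values, so the calls between these layers describe the chosen genes and are no independent support. The IZ and MZ comparisons also share the libraries of the cortical plate. At E28 22 members were higher in the IZ than in the CP, where 3.6% of all features were, and 0 were lower, where 1.75% were. An unadjusted p under 0.05 was found for 40 members and for 4225 of the 26780 features tested. DESeq2 called 34 higher and 2 lower. The median log2 difference was 1.44 (median SE 0.46). At E37 the IZ was higher for 24 members, against 2.72% of all features, and lower for 2, against 0.807%. By E42 there were 30 higher, against 6.11% of all features, and 1 lower, against 6.15%, with a median of 1.22. The same 20 members were higher in the IZ than in the cortical plate at all 3 stages, and the matching share of all features was not counted. The E28 count fell to 12 without replicate 2 of the CP, and also to 12 without replicate 2 of the IZ.

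Between the MZ and the cortical plate, the median log2 difference of the members was 1.24 at E28, 1.60 at E37 and 2.11 at E42, given as a description for the same reason. At E28 21 members were higher in the MZ, where 4.16% of all features were, and 1 was lower, where 5.69% were. The MZ libraries of E28 were apart, with sums of 1004 and 539 CPM, and without replicate 1 of the MZ 10 members were higher and 3 lower, while without replicate 2 of the CP 9 were higher. In a fit of these 4 libraries alone 0 of 61 members tested were called, and 24 had an unadjusted p under 0.05. At E37 42 members were higher, against 9.91% of all features, and 3 lower, against 8.28%. Without replicate 3 of the MZ at E37, 28 were higher and 0 lower. At E42 44 were higher, against 9.26% of all features, and 1 lower, against 8.62%. For the 7650 TSDBGID genes the MZ medians lay between −0.26 and −0.22. The change of the MZ difference with stage was not tested.

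Within the cortical plate, whose libraries the rule also used, few members differed between the sublayers. The CPi sums exceeded the CPo sums at both stages without overlap, and the median log2 difference was 0.69 (median SE 0.45) at E37 and 0.77 (median SE 0.43) at E42. The test called 1 member higher in the CPi at E37, where 0.0261% of all features were, and 0 lower, where 0% were. An unadjusted p under 0.05 was found for 23 members and for 850 of the 26780 features tested. DESeq2 called 5 higher and 0 lower. At E42 there were 4 higher, against 0.504% of all features, and 0 lower, against 0.179%. Here 29 members and 1710 of the 26780 features had an unadjusted p under 0.05. DESeq2 called 13 higher and 0 lower. The call at E37 was lost without replicate 2 of the CPi and without either CPo library, and the total at E42 was 1 without any one of the 4 libraries. With the replicate number as a block, 2 members were called at E37 and 10 at E42.

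**Figure D5:**
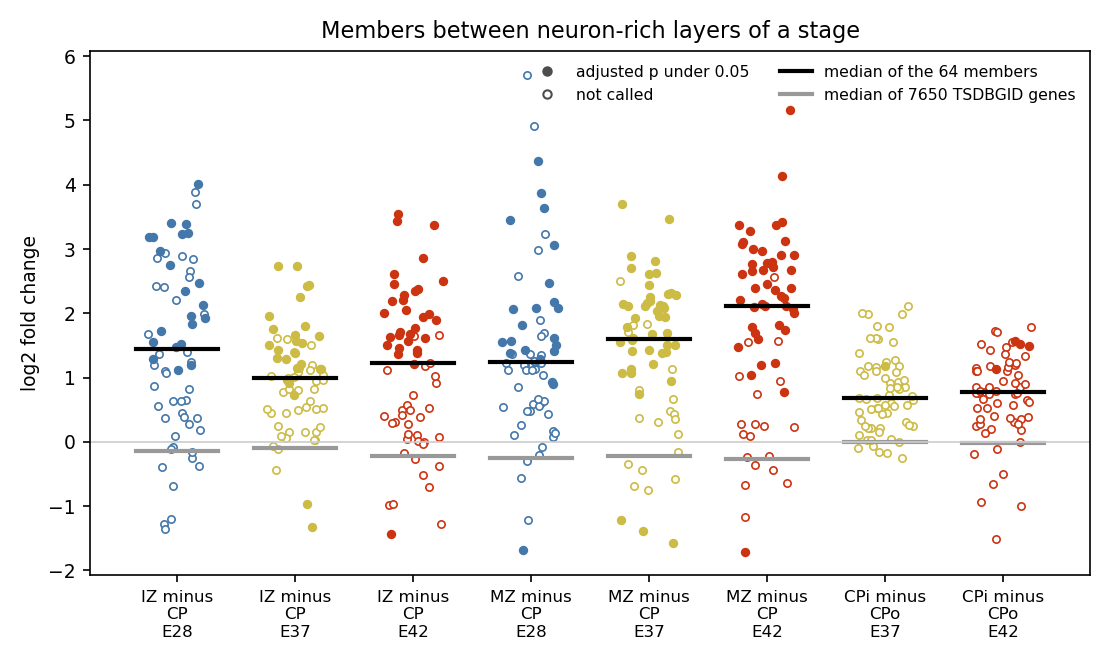
Log2 fold change of each member between neuron-rich layers of a stage (vertical axis), for the IZ and the MZ against the cortical plate and for the CPi against the CPo (horizontal axis). Points are the 64 members, filled where the adjusted p was under 0.05, black lines are their medians and grey lines the medians of the 7650 TSDBGID genes. The MZ medians are 1.24, 1.60 and 2.11 at E28, E37 and E42, and the grey lines lie at or below 0.

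The members at the ends of the IZ and MZ comparisons with the cortical plate at E42 were looked at in every layer. TSDBGID.3645 showed the largest difference between the IZ and the cortical plate at E42, with 402 and 571 CPM in the IZ, 55.4 and 69.6 CPM in the CPi and 20.0 and 18.3 CPM in the CPo (log2 difference 3.55, SE 0.35, adjusted p = 2.3e-06). Its OSVZ libraries held 524 and 541 CPM at E42, up from 10.3 and 6.21 CPM at E28, and its ISVZ libraries 69.8 and 56.4 CPM, up from 2.42 and 1.97 CPM. Unlike most members it was low in the VZ, at 5.20 CPM at E28 and 37.7 CPM at E42 in replicate 1. The gene was thus highest in the adjoining OSVZ and IZ, whose E42 values overlapped.

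TSDBGID.23380 was the 1 member lower in the IZ than in the cortical plate at E42. It held 25.7 and 18.3 CPM in the IZ and 42.2 to 57.0 CPM in the 4 libraries of the plate (log2 difference −1.44, SE 0.32, adjusted p = 0.0025), and the adjusted p was 0.098 without replicate 2 of the IZ. In the OSVZ it held 11.0 and 7.23 CPM at E42 and in replicate 1 of the VZ 6.04 CPM, against 6.91 CPM at E28. For this member the CPo was the highest layer at E42.

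In the MZ at E42, TSDBGID.7419 stood furthest above the cortical plate (log2 difference 5.16, SE 0.72, adjusted p = 7.4e-05). TSDBGID.7423 was the 1 member lower there, with 52.1 and 49.0 CPM in the MZ against 197 and 159 CPM in the CPi and 147 and 91.8 CPM in the CPo (log2 difference −1.71, SE 0.38, adjusted p = 0.0031), and its adjusted p was 0.057 without replicate 1 of the MZ. At E28 it had held 20.8 and 25.3 CPM in the CP and 17.6 and 5.41 CPM in the MZ. In the ISVZ it was at 20.1 and 24.7 CPM at E28 and at 26.7 and 22.7 CPM at E42, so the stages overlapped there.

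All these values are shares of the reads of a dissected layer. In bulk tissue of this kind, a change in the number of cells that express a gene cannot be told apart from a change in its RNA per cell. At E28 and E37 libraries with one replicate number deviated together from their layers. At E42 the ISVZ libraries did so with the neuron-rich layers (correlations of 0.129 to 0.204), while those of the OSVZ lay between −0.107 and 0.064. The E28 germinal libraries and the E42 ISVZ libraries may share fetuses or a preparation with the neuron-rich libraries that chose the genes. Whether they do was not tested.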

How the data were processed

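After adapter trimming, the authors aligned the reads with HISAT to the genome of the species and assigned them to annotated features with HTSeq-count. The deposited values are raw counts per feature. The counter's 5 lines for unassigned reads were kept out of library sizes and tests. CPM were computed from these counts without a scaling factor for levels and for the rule, and TMM factors were used in the tests. The members and comparison lists were chosen with earlier results of these data known.

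In R 4.3.3, edgeR 4.0.16 kept features by filterByExpr with a minimum count of 10, which left 26780, all 64 members among them. The 34 libraries outside the identical VZ pair entered 1 quasi-likelihood fit with a mean for each layer and stage and 16 residual degrees of freedom, and the common biological coefficient of variation was 0.377. Each contrast was adjusted over all features by the Benjamini-Hochberg method, at 0.05. The cortical plate was the mean of its libraries at E37 and of the CPi and CPo at E42. SE is the absolute log2 fold change divided by the square root of F. The fit was tested on simulated data. Alternatives were DESeq2 1.42.0, its size factors, no filter, all 36 libraries, only the groups compared, a replicate block, the 20 most abundant features left out of library sizes, and each library left out, for which the dispersion trend of the full fit was kept. Plots were drawn with matplotlib 3.10.9.

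Identifiers were named by a rule, at most 2 higher and 2 lower a comparison: the largest smallest step, the largest smaller change among members called higher in both subventricular layers, the most negative mean change among those called lower, and the extremes among members called in the IZ and in the MZ against the cortical plate at E42. Libraries with one replicate number deviated together (correlation above 0.1) in all 10 pairs of E28 layers tested, between 0.168 and 0.250, and in all 6 pairs of E37, between 0.144 and 0.272. At E42 this held for 10 of 15 pairs, and the range was −0.107 to 0.232. The labels do not say what the number marks.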

Additional observations from a re-analysis of the deposited data

Results flagged for a closer look

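The change from E28 to E42 differed between the OSVZ and the ISVZ, by an interaction test, for 31 of the 64 members. Among the named members it was 4.23 larger on the log2 scale in the OSVZ for TSDBGID.21050 (edgeR, adjusted p = 0.0022), 2.63 for TSDBGID.25596 (adjusted p = 6.5e-05) and 2.45 for TSDBGID.4309 (adjusted p = 0.0079). TSDBGID.21050 was higher at E42 in both layers, whereas TSDBGID.25596 and TSDBGID.4309 were lower in the ISVZ and were not called in the OSVZ. No layer and stage had 4 libraries, so no search for single libraries far from the rest of their group was made.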

How the results depend on the processing

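No direction was reversed by any alternative for the results tried. With a minimum of 20 CPM 41 genes met the rule, with steps of 2 times 29 and with a limit below 1.5 times 151, and leaving out each library gave 55 to 76. Totals called, higher and lower together, moved by over 1.5 times as follows, and the cause was not tested. With DESeq2 there were 47 for the interaction, 10 for the OSVZ against the ISVZ at E42, 36 for the IZ and 35 for the MZ against the CP at E28, and 5 at E37 and 13 at E42 for the CPi against the CPo. With DESeq2 size factors the CPi gave 0 at E37. With no filter there were 12 for the OSVZ against the ISVZ at E42, and 6 and 12 for the CPi at E37 and E42; this setting also moved the median change of all features in the ISVZ by −0.19. With all 36 libraries there were 19 for the interaction, 1 for the OSVZ against the ISVZ at E42, 17 for the IZ at E37, 13 for the MZ at E28, 0 and 2 for the CPi, and 5 for the VZ against the ISVZ at E28. With only the groups compared there were 15 for the OSVZ against the ISVZ at E42, 9 for the IZ at E28 (of 62 members tested), 48 for the IZ at E42, 0 for the MZ at E28, and 0 and 29 for the CPi.

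With the replicate number as a block, 2 members were called for the CPi against the CPo at E37 and 10 at E42. The block moved no other total by over 1.5 times, with 37 in the ISVZ, 56 in the OSVZ and 37 for the interaction.

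Leaving out 1 library gave totals of 21 to 32 for the OSVZ against the ISVZ at E28 and 1 to 3 at E42, 25 to 28 for the ISVZ, 48 to 51 for the OSVZ and 21 to 30 for the interaction. Against the cortical plate the IZ gave 12 to 17 at E28, 18 to 29 at E37 and 25 to 30 at E42, and the MZ 9 to 22, 28 to 46 and 36 to 43. For the CPi against the CPo the totals were 0 to 1 at E37 and 1 to 1 at E42. The fits that leave 1 library in a group assume that it varies like the other groups. With 2 libraries in most groups, a difference near the median SE of its comparison could not be called.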
